A study of Mus musculus with 9 samples.

Results

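The genes described here are 10 genes of Leydig cell steroidogenesis, Star, Cyp11a1, Hsd3b1, Hsd3b6, Cyp17a1, Hsd17b3, Lhcgr, Nr5a1, Insl3 and Fabp3, taken as a list and read through every probe set that the array annotation gives to one of them alone. A probe set is a group of short oligonucleotides whose brightness is summarised into 1 signal for a transcript. Of the 10 genes, 7 had such a probe set, 13 probe sets in all, against 18193 genes and 34945 single-gene probe sets on the whole array. Lhcgr, Insl3 and Hsd3b6 had none and were not analysed here as single genes, although Insl3 and Hsd3b6 are among the genes of 3 probe sets that several genes share. RNA of 5 Tmem203 null testes and 4 wild type (WT) testes was hybridised to Affymetrix Mouse Genome 430 2.0 arrays, 1 array per sample. All mice were C57BL/6J and 24 weeks old. The null allele was made in C57BL/6 embryonic stem cells and is carried through the germ line. It lacks the translation start of Tmem203, which encodes a membrane protein of the endoplasmic reticulum, and keeps a short piece of vector with an FRT site. Left and right testes were harvested separately and the labels do not say which animal each came from, so each p-value reflects how these samples varied and may not reflect how animals vary.

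Leydig cells lie between the seminiferous tubules and make testosterone from cholesterol under the control of luteinizing hormone (LH). LH binds its receptor, Lhcgr, and raises cyclic AMP, and the carrier Star then brings cholesterol to the inner mitochondrial membrane, which is the rate-limiting step. There Cyp11a1 cuts the side chain to give pregnenolone, a 3-beta-hydroxysteroid dehydrogenase (Hsd3b1 or Hsd3b6 in the mouse) makes progesterone, Cyp17a1 turns this into androstenedione, and Hsd17b3 makes testosterone. The nuclear receptor Nr5a1 activates the genes of most of these proteins. Insl3 is a peptide hormone of Leydig cells known for testis descent, and Fabp3 is a cytosolic carrier of long-chain fatty acids best known from heart muscle.

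Upstream sequence is shown for genes whose signals are described below, so that the letters bound by the known regulators of Leydig cells can be seen beside the values. RefSeq sequences of GRCm38.p6 were found by symbol for 7 of the 10 genes, in 8 windows because Cyp11a1 had a pair of starts. In the 250 bases before each start, 3 motifs were searched on both strands. They were CAAGGNC, a half-site of Nr5a1, present in 15% of 32851 windows of that length, GATAA, read by GATA factors, present in 22.6%, and TATAAA, present in 12.4%. The lines below give 150 bases before the start of 2 dehydrogenase genes and of Fabp3 and 30 bases round each half-site of Insl3, with every match in capitals.
Hsd3b1, chr3:98859795-98859944, minus strand: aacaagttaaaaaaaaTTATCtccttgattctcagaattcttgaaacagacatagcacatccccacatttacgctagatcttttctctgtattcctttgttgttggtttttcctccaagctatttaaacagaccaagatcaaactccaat
Hsd3b6, chr3:98814444-98814593, minus strand: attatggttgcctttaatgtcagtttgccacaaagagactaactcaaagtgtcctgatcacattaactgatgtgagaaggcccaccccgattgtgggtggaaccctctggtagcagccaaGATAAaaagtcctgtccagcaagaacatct
Fabp3, chr4:130308588-130308737, plus strand: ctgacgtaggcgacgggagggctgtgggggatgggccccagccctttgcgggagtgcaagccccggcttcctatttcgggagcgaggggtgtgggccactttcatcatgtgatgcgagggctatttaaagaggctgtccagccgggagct
Insl3, chr8:71689104-71689133, plus strand: ggagaggacttCAAGGTCccaagctggaca
Insl3, chr8:71689184-71689213, plus strand: tgtgttcccgcCAAGGCCcatgggcggcgc
The GATAA letters began 134 bases before the start of Hsd3b1, on the opposite strand, and 30 bases before that of Hsd3b6. The half-site letters of Insl3 began 137 and 57 bases before its start. The windows of Cyp11a1, Hsd17b3, Lhcgr and Fabp3 held none of the 3 motifs, which says only that these letters are not there. No match overlapped another, and a match is a description of letters and not of a bound site.

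Values are log2 signals after Robust Multichip Average (RMA), so that a difference of 1 is a doubling, and a signal is compared between samples and not between probe sets. A probe set was called detected when its signal reached 32, a log2 value of 5, on at least 1 array. It passed when its adjusted p was under 0.05 in limma, a linear model with a shared estimate of variance, after Benjamini-Hochberg adjustment over 45037 probe sets. Array medians lay between 6.96 and 7.05. WT replicate 3 stood apart from the other arrays, with an array weight of 0.313 where the others had 0.621 to 2.02, and values without it are given beside the results. Tmem203 itself read 9.11 ± 0.03 (SD, n = 5) in null testes and 9.81 ± 0.13 (SD, n = 4) in WT testes, a log2 fold change of -0.70 (adjusted p = 2.87e-04 in limma). The 3′ signal of the Gapdh control exceeded its 5′ signal by 0.85 ± 0.04 (SD, n = 5) in null testes and 0.93 ± 0.01 (SD, n = 4) in WT testes (p = 0.0238, two-sided exact permutation test, smallest possible p 0.00794). For the beta-actin control the excess was 0.58 ± 0.04 (SD, n = 5) in null and 0.60 ± 0.04 (SD, n = 4) in WT testes (p = 0.341, same permutation test). The part of the Gapdh difference in the results was not tested.

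Transcripts of 5 of the 7 measured steroidogenesis genes were higher in Tmem203 null testes. They were Hsd3b1 and Hsd17b3 of the enzyme chain, a dim probe set of Cyp11a1, the regulator Nr5a1 and Fabp3, with changes between 1.23-fold and 1.55-fold. The genes were chosen with earlier results of these data known, and the paper already lists Hsd3b1 as higher, so the counts are descriptions. Of the 13 probe sets 12 were detected. All 12 had a positive log2 fold change, from 0.04 to 0.64, but they belong to 7 genes read on the same arrays. The share of positive changes over all probe sets was not counted. Of the 12, 5 passed, all as higher. Over all detected single-gene probe sets 5.7% passed in this direction. By gene, read through the detected probe set with the smallest p, it was 8.03% of 16180 genes. In the same 5 probe sets every null array lay above every WT array, which was true of 7.82% of all detected single-gene probe sets. Hsd3b1 alone passed and changed by at least 1.5-fold, as 0.978% of them did in this direction. Without WT replicate 3 the same 5 probe sets passed, against 6.69% of all. Leaving out an array cannot bring overlap to the 5, and no other became free of overlap, where 11.7% of all were free. All 12 changes were larger, but WT replicate 3 was the highest WT array in 9 of the 12 probe sets. The share of larger changes over all probe sets was not counted. Without WT replicate 2 only Cyp11a1 and Hsd3b1 passed. Without null replicate 1, null replicate 4 or WT replicate 4 only these and Fabp3 did. The samples are whole testis, in which a higher share of Leydig cells and more RNA per Leydig cell cannot be told apart. RNA does not measure steroid output. The paper that reported these data describes serum testosterone and LH as comparable between the genotypes, without showing values. It also reports lighter testes in null mice at the age of these samples. In older null mice it describes a subtle reduction of late spermatids. Sertoli and Leydig cells of these older mice showed no abnormality under the microscope. The part of testis weight and cell composition in the higher signals was not tested.

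**Figure D1:**
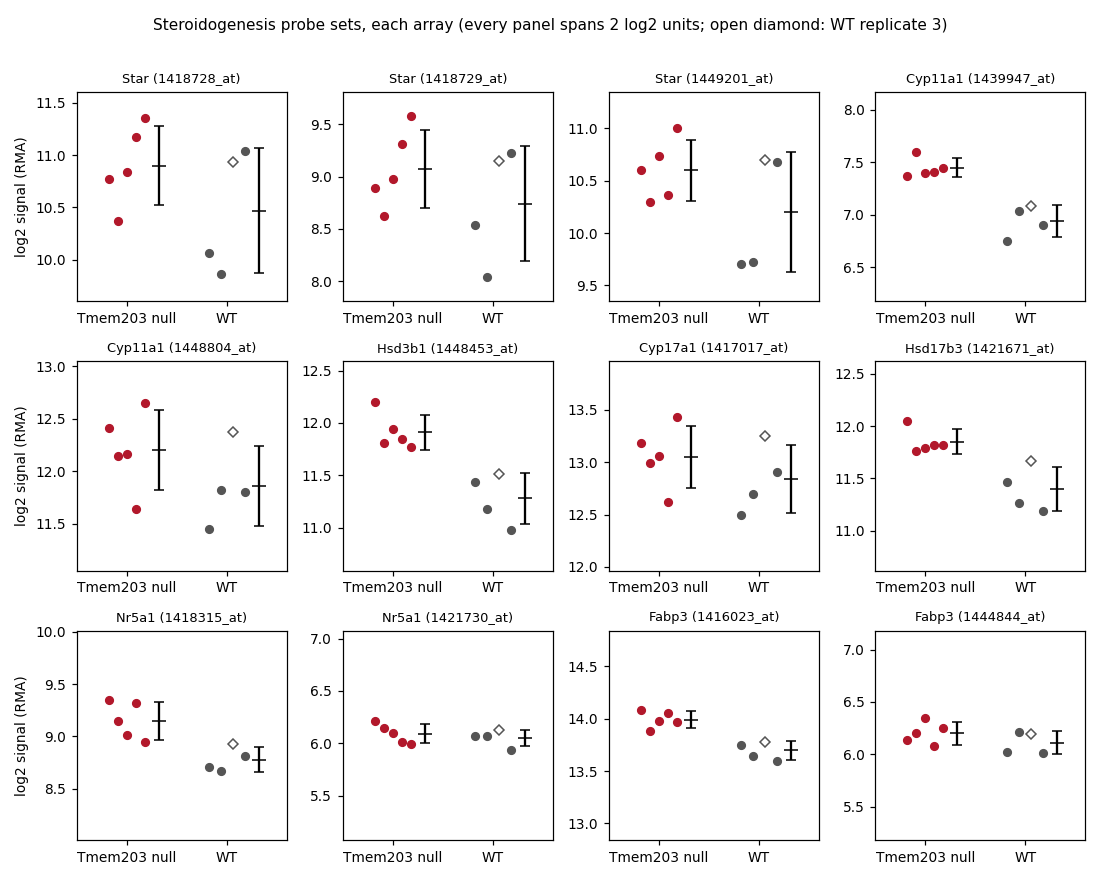
The log2 signal of each array is plotted for the 12 detected probe sets, with Tmem203 null arrays (red, n = 5) left of WT arrays (grey, n = 4, WT replicate 3 as an open diamond) and mean ± SD beside each genotype. Null and WT points are apart in Hsd3b1, Hsd17b3, Cyp11a1 (1439947_at), Nr5a1 (1418315_at) and Fabp3 (1416023_at) and overlap in the other 7 panels.

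The first step was read by 3 probe sets of Star, and none of them separated the genotypes. Star (1418728_at) had signals of 10.77, 10.37, 10.84, 11.17 and 11.35 in null replicates 1 to 5, and of 10.06, 9.86, 10.93 and 11.04 in WT replicates 1 to 4. WT replicates 1 and 2 were low, while WT replicates 3 and 4 lay within the null range. The mean was 10.90 ± 0.38 (SD, n = 5) in null and 10.47 ± 0.60 (SD, n = 4) in WT testes, a log2 fold change of 0.43 (95% interval -0.18 to 1.03, adjusted p = 0.387).

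The other Star probe sets did not separate the genotypes either. Star (1418729_at) had 8.89, 8.62, 8.98, 9.31 and 9.58 in null testes, and 8.54, 8.04, 9.15 and 9.22 in WT testes. Star (1449201_at) had 10.60, 10.30, 10.74, 10.36 and 11.00 in null testes, and 9.70, 9.72, 10.70 and 10.68 in WT testes. In both, null replicate 5 was the highest array and WT replicates 1 and 2 were the lowest, but null replicate 4 was second highest of the null arrays in 1418729_at and second lowest in 1449201_at. Their log2 fold changes were 0.34 (interval -0.23 to 0.91, adjusted p = 0.475) and 0.40 (interval -0.13 to 0.94, adjusted p = 0.354). Without WT replicate 3 the 3 changes were 0.58, 0.47 and 0.57, and none passed (adjusted p = 0.263, 0.341 and 0.19). These intervals hold both no change and a change the size of that of Hsd3b1.

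Cyp11a1, the side-chain cleavage enzyme, gave different calls from its probe sets. Cyp11a1 (1448804_at), designed from the reference transcript, had 12.41, 12.14, 12.16, 11.64 and 12.65 in null testes, and 11.45, 11.82, 12.37 and 11.80 in WT testes. Null replicate 4 lay below 3 of the 4 WT arrays, and WT replicate 3 lay above 3 of the 5 null arrays. The log2 fold change was 0.34 (interval -0.14 to 0.81, adjusted p = 0.383), and without WT replicate 3 it was 0.51 (adjusted p = 0.164).

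Cyp11a1 (1439947_at), designed from an expressed sequence tag, had 7.37, 7.60, 7.40, 7.41 and 7.45 in null testes, and 6.75, 7.04, 7.08 and 6.90 in WT testes. The lowest null array was 0.28 above the highest WT array. The log2 fold change was 0.50 (standard error 0.08, interval 0.33 to 0.68, 1.42-fold, adjusted p = 0.00468), and without WT replicate 3 it was 0.55 (adjusted p = 0.00459). The remaining probe set, 1457604_x_at, was not detected on any array, with a log2 fold change of 0.03 (adjusted p = 0.821). Its sign turned to -0.00 without null replicate 2, without WT replicate 2 and after median centring.

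Hsd3b1, the dehydrogenase that makes progesterone, had the largest change among the 12 detected probe sets. Its signals were 12.20, 11.81, 11.94, 11.85 and 11.77 in null testes, and 11.44, 11.18, 11.51 and 10.98 in WT testes. Null replicate 1 was the highest array and the groups were 0.27 apart at their nearest points. The mean was 11.91 ± 0.17 (SD, n = 5) in null and 11.28 ± 0.24 (SD, n = 4) in WT testes. This is a 1.55-fold change, 0.64 on the log2 scale (standard error 0.12, interval 0.37 to 0.90, adjusted p = 0.0118). Without WT replicate 3 it was 0.71 (adjusted p = 0.00905).

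Hsd3b6, the isoform known from adult mouse Leydig cells, was read only by 1460232_s_at, which it shares with Hsd3b3 and Hsd3b2, so its signal cannot be assigned to one of them. This probe set had 12.06, 11.77, 11.98, 11.74 and 12.01 in null testes, and 11.33, 11.44, 11.93 and 11.75 in WT testes. WT replicate 3 lay above null replicates 2 and 4, and WT replicate 4 above null replicate 4. Null testes were higher by a log2 fold change of 0.30 (interval 0.02 to 0.58, adjusted p = 0.18), and without WT replicate 3 it was 0.41 (adjusted p = 0.0579).

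Cyp17a1, which follows in the chain, had 13.18, 12.99, 13.06, 12.62 and 13.43 in null testes, and 12.50, 12.70, 13.25 and 12.91 in WT testes. The groups overlapped, with WT replicate 3 second highest of all arrays and null replicate 4 second lowest. The mean was 13.05 ± 0.30 (SD, n = 5) in null and 12.84 ± 0.32 (SD, n = 4) in WT testes, a log2 fold change of 0.21 (interval -0.18 to 0.60, adjusted p = 0.512). Without WT replicate 3 it was 0.35 (adjusted p = 0.242). Whether Cyp17a1 changed less than Hsd3b1 was not tested.

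Hsd17b3, the enzyme of the last step to testosterone, was higher in null testes, with 12.05, 11.76, 11.79, 11.82 and 11.82, against 11.47, 11.27, 11.67 and 11.19 in WT testes. The 4 null arrays other than replicate 1 lay between 11.76 and 11.82, and the lowest null array was 0.09 above WT replicate 3. This gave a log2 fold change of 0.45 (standard error 0.10, interval 0.22 to 0.67, 1.36-fold, adjusted p = 0.0249), and without WT replicate 3 it was 0.54 (adjusted p = 0.00682). The call did not hold without null replicate 1 (adjusted p = 0.0569), null replicate 4 (0.0523), null replicate 5 (0.0557), WT replicate 2 (0.0783) or WT replicate 4 (0.0566).

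**Figure D2:**
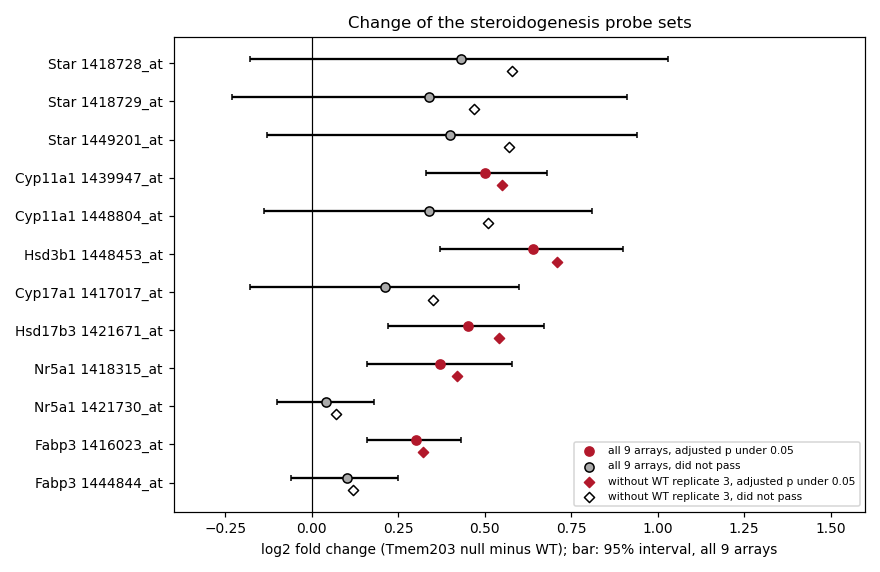
The 12 detected probe sets are plotted in pathway order by their log2 fold change of null over WT testes (x axis), with 95% intervals from all 9 arrays as bars, circles for all arrays and diamonds for the values without WT replicate 3. Filled red symbols passed an adjusted p under 0.05, and the intervals are widest for Star, from -0.23 to 1.03 over its probe sets.

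Nr5a1, the nuclear receptor also called SF-1, was read by a pair of probe sets of which one passed. Nr5a1 (1418315_at) had 9.35, 9.15, 9.01, 9.32 and 8.95 in null testes, and 8.71, 8.67, 8.93 and 8.81 in WT testes. The groups did not overlap, but null replicate 5 was only 0.02 above WT replicate 3. The log2 fold change was 0.37 (standard error 0.09, interval 0.16 to 0.58, 1.30-fold, adjusted p = 0.0394), and without WT replicate 3 it was 0.42 (adjusted p = 0.0305). It did not pass without null replicate 1, 2 or 4 (adjusted p = 0.0866, 0.0693 and 0.0868) or without WT replicate 1, 2 or 4 (0.0878, 0.115 and 0.0681), nor after median centring (0.0645) or a further quantile normalization (0.0568). Nr5a1 (1421730_at) was dim, from 5.99 to 6.21 in null and from 5.94 to 6.13 in WT testes, with a log2 fold change of 0.04 (adjusted p = 0.736).

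Insl3, the peptide hormone, was read by a pair of probe sets that are also annotated to Jak3, a kinase gene, so neither signal can be assigned to Insl3 alone. Probe set 1423021_s_at had 14.38, 14.18, 14.28, 14.22 and 14.33 in null testes, and 14.00, 14.19, 14.09 and 13.77 in WT testes, and only null replicate 2 lay below the highest WT array. Probe set 1427092_at had 7.22, 6.95, 6.95, 7.09 and 7.12 in null testes, and 6.56, 6.95, 6.71 and 6.77 in WT testes. WT replicate 2 was the WT array that reached the null range in both. Their log2 fold changes were 0.26 (interval 0.08 to 0.45, adjusted p = 0.0878) and 0.32 (interval 0.12 to 0.51, adjusted p = 0.0548), and neither passed without WT replicate 3 (adjusted p = 0.0891 and 0.0955).

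Fabp3, the fatty acid carrier, had the least spread of the probe sets that passed. Fabp3 (1416023_at) had 14.08, 13.88, 13.98, 14.05 and 13.97 in null testes, and 13.75, 13.64, 13.78 and 13.60 in WT testes. The groups were 0.10 apart, and the log2 fold change was 0.30 (standard error 0.06, interval 0.16 to 0.43, 1.23-fold, adjusted p = 0.0182). Without WT replicate 3 it was 0.32 (adjusted p = 0.0151), and without WT replicate 2 it was 0.28 and did not pass (adjusted p = 0.0557). A second and much dimmer Fabp3 probe set, 1444844_at, ranged from 6.08 to 6.35 in null and from 6.01 to 6.21 in WT testes (log2 fold change 0.10, adjusted p = 0.471).

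Star, Cyp17a1 and the brighter Cyp11a1 probe set varied more among replicates of one genotype than the probe sets that passed, a description with no test. Pooled within genotypes, the standard deviation was 0.49, 0.46 and 0.43 for the Star probe sets, 0.38 for Cyp11a1 (1448804_at) and 0.31 for Cyp17a1, while the median of 29238 detected single-gene probe sets was 0.12. Only 60 of the 29238, the probe set itself among them, were as variable as Star (1418728_at), 201 were as variable as Cyp11a1 (1448804_at) and 574 as Cyp17a1. The standard deviation was 0.20 for Hsd3b1, 0.17 for Hsd17b3, 0.15 for Nr5a1 (1418315_at), 0.12 for Cyp11a1 (1439947_at) and 0.08 for Fabp3 (1416023_at), and 0.09 and 0.11 for the dim probe sets of Nr5a1 and Fabp3 that did not pass. A test of this kind passes smaller changes where the spread is small, so that Fabp3 passed at a log2 fold change of 0.30 and Star did not at 0.43.

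**Figure D3:**
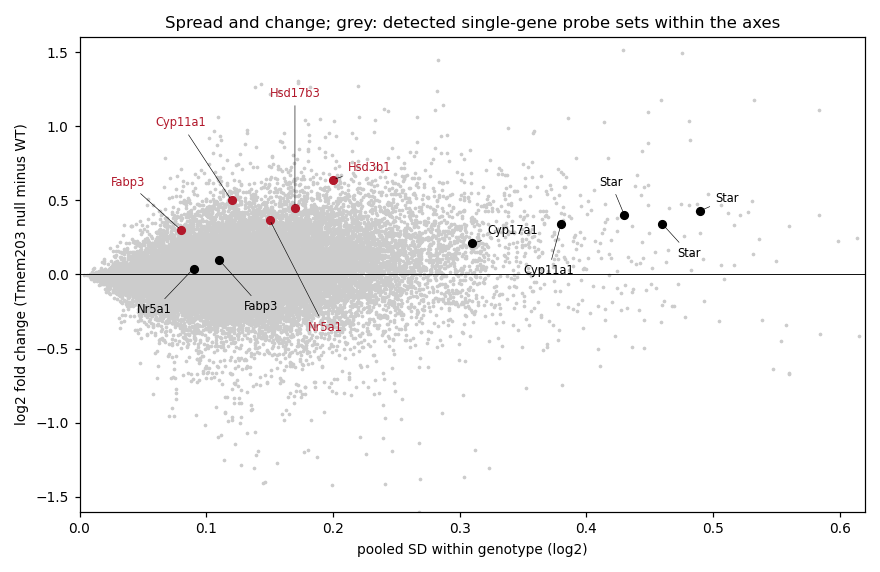
The standard deviation pooled within genotypes (x axis, log2) is plotted against the log2 fold change of null over WT testes (y axis) for the detected single-gene probe sets within the axes (grey) and for those of the steroidogenesis genes (red, passed, and black, did not pass). Star, Cyp17a1 and Cyp11a1 (1448804_at) lie at 0.31 and above on the x axis, and the probe sets that passed lie at 0.20 or below.

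The order of the arrays also differed between these probe sets. In Cyp17a1 and in Cyp11a1 (1448804_at) null replicate 5, null replicate 1 and WT replicate 3 were the 3 highest arrays and null replicate 4 and WT replicate 1 were the lowest. In Star (1418728_at and 1418729_at) null replicate 4 was instead the second highest of all arrays and WT replicate 2 was the lowest. In Hsd3b1, Hsd17b3 and Fabp3 (1416023_at) null replicate 1 was the highest array, WT replicate 3 was the highest WT array and WT replicate 4 was the lowest. Over the 12 detected probe sets WT replicate 3 was the highest WT array in 9, and WT replicates 1, 2 and 4 were the lowest of all arrays in 4, 3 and 5. Samples with a high signal of the dehydrogenases were not always those with a high signal of Star.

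**Figure D4:**
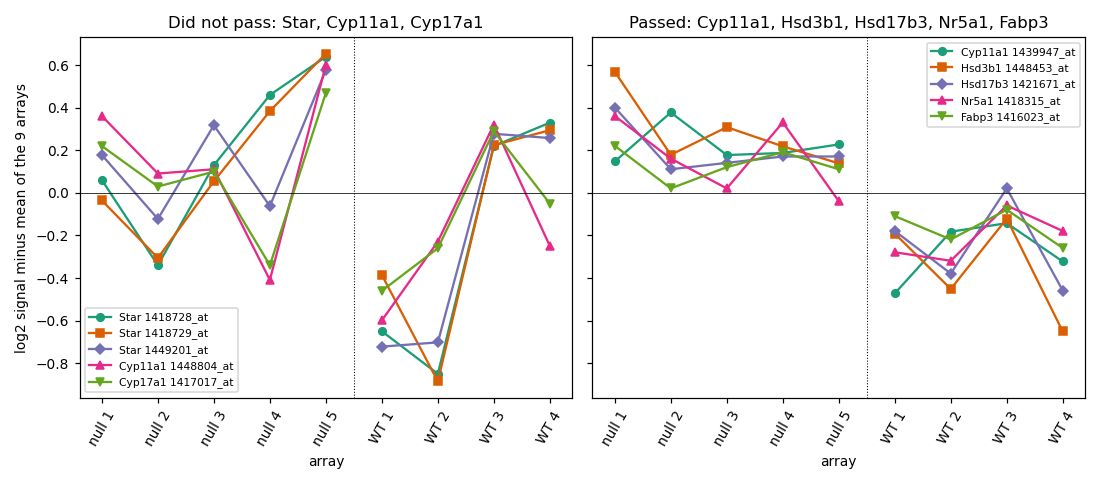
Log2 signals minus the mean over the 9 arrays (y axis) are plotted by array (x axis, null replicates left of WT replicates) for 5 probe sets of Star, Cyp11a1 and Cyp17a1 that did not pass (left) and the 5 that passed (right), and lines only join the points of a probe set within a genotype. On the left null replicate 4 is high for Star (1418728_at) and low for Cyp11a1 and Cyp17a1, and on the right every null point of a probe set is above its WT points.

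Genes whose array profile was closest to that of Hsd3b1 were found by the mean absolute difference of the centred log2 signals over the 9 arrays. Ly6e, F3 and Frrs1 were the closest genes outside the list, with differences of 0.068, 0.073 and 0.074. F3 encodes tissue factor, which starts blood coagulation. As the measure favours genes that differ between the genotypes as Hsd3b1 did, their own log2 fold changes of 0.66, 0.55 and 0.64 are given without a test.

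The genes that deliver cholesterol and electrons to this chain were read from further lists, each gene through its detected single-gene probe set with the smallest p, which favours a change where a gene has several, and its other probe sets are given where one turns the sign or where none passed and the sizes differ. Among all 16180 genes read this way 8.03% passed as higher and 6.82% as lower in null testes, and the median log2 fold change was -0.03. The lists were chosen with earlier results of these data known. Abca1, Lipa, Esr1, Pdgfra, Hpgd and Shbg, among others, are already in the paper's list of genes higher in these null testes. The counts beside these shares are therefore descriptions and not independent evidence. Of 15 measured genes of cholesterol uptake, storage and transport, 4 were higher and 1 was lower, with a median of 0.22. Abca1, which exports cholesterol, read 11.02 ± 0.23 (SD, n = 5) in null and 10.17 ± 0.10 (SD, n = 4) in WT testes (log2 fold change 0.86, adjusted p = 0.00195), and Lipa, the lysosomal lipase that frees cholesterol from its esters, read 7.89 ± 0.16 (SD, n = 5) in null and 7.20 ± 0.17 (SD, n = 4) in WT testes (0.69, adjusted p = 0.00325). Stard5 and Vdac1 passed in a single probe set each (0.53 and 0.47), while the others of Stard5 changed by 0.04 and 0.05 and those of Vdac1 by 0.14 to 0.22, and none of these passed. Lipe, the hormone-sensitive lipase, fell by 0.28 in one probe set (adjusted p = 0.0156), and its other probe set changed by -0.03.

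Some genes of cholesterol synthesis were higher too. Of 20 measured genes 4 were higher, with a median of 0.24, and without WT replicate 3 there were 8. Hmgcs1, the synthase that makes HMG-CoA, rose by 0.31 (adjusted p = 0.0107), Cyp51, which removes a methyl group from lanosterol, by 0.40 in one probe set (adjusted p = 0.0332), Dhcr7, the reductase of the last step, by 0.42 (adjusted p = 0.0496), and Srebf2, the transcription factor that drives the pathway, by 0.28 in one probe set (adjusted p = 0.0244). The other probe sets did not pass, at 0.58 and 0.02 for Cyp51 and -0.01 for Srebf2. Of the 4 measured electron donors, Cyb5b, a cytochrome b5 of the mitochondrial outer membrane, rose by 0.21 in one probe set (adjusted p = 0.0223, with 0.15 and -0.11 in its others), while Cyb5a, the cytochrome b5 that aids the lyase step of Cyp17a1, had a change of 0.17 (adjusted p = 0.0519) and Cyb5r3 one of 0.22 (adjusted p = 0.114).

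Of 15 other steroid-converting enzymes, 5 were higher and 1 was lower. Cyp1b1, which hydroxylates oestrogens, read 9.22 ± 0.09 (SD, n = 5) in null and 8.72 ± 0.11 (SD, n = 4) in WT testes in one probe set (log2 fold change 0.51, adjusted p = 0.0024), and its others changed by 0.00 and 0.24 and did not pass. Hsd17b12, a reductase of fatty acid elongation, rose by 0.34 (adjusted p = 0.00408). Hsd17b11, Sult1e1 and Cyp21a1 rose by 0.72, 0.62 and 0.52, and the other probe sets of Hsd17b11 (0.22) and Cyp21a1 (0.36) did not pass. Hsd17b2, which oxidises testosterone back to androstenedione, fell by 0.35 (adjusted p = 0.00625). Stard5, Vdac1, Dhcr7, Hsd17b11, Sult1e1 and Cyp21a1 were named after their values were seen, to complete counts of 5 or fewer.

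Genes of LH signalling and the transcription factors of Leydig cells did not move one way. Of 29 measured genes 7 were higher and 2 were lower, and the median of -0.00 was close to that of all genes. Adcy9, an adenylyl cyclase, rose by 0.58 (adjusted p = 0.00159), and Gata4, a factor that acts with Nr5a1 on several steroidogenic promoters, by 0.38 (adjusted p = 0.0066). Esr1, the oestrogen receptor, rose by 0.61 in one probe set (adjusted p = 0.00383), with 0.52 and -0.28 in its others. Prkar2b, a regulatory subunit of protein kinase A, and the factor Mef2a, both named after their values were seen, were each lower in one probe set (-0.41 and -0.29). The other probe sets of Prkar2b went the opposite way, at 0.28 and 0.27, and those of Mef2a lay between -0.07 and 0.19, and none of these passed.

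Some of the other genes of Leydig cells and of the genes of Sertoli cells were also higher in null testes. Of 17 measured Leydig cell markers outside the list 8 were higher, with a median log2 fold change of 0.35, and the mean over the markers lay between 11.01 and 11.29 in null arrays and between 10.72 and 11.05 in WT arrays. Sult1e1, one of the 8, was also counted among the steroid-converting enzymes, and Scarb1 and Hsd11b1, which did not pass, stand in a second list as well. Of the 17 markers 15 had a positive log2 fold change, where the median of all genes was -0.03. Rxfp2 and Gramd1b, named after their values were seen, changed by -0.25 and -0.12 and did not pass. In both every null array lay below every WT array, and their other probe sets changed by -0.22 and 0.17. Pdgfra, a receptor also found on stromal cells, read 10.13 ± 0.19 (SD, n = 5) in null and 9.38 ± 0.14 (SD, n = 4) in WT testes (0.75, adjusted p = 0.00239), Hpgd, which inactivates prostaglandins, rose by 0.67 (adjusted p = 0.0121) and Gstm2, a glutathione transferase, by 0.32 (adjusted p = 0.0167). WT replicate 3 was the array of 11.05 and lay within the null range, and the other WT arrays lay at or below 10.75.

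Of 16 measured Sertoli cell markers 9 were higher, with a median of 0.27. The mean over these markers lay between 10.88 and 11.03 in null arrays and between 10.62 and 10.80 in WT arrays. Shbg, the sex hormone binding globulin, rose by 0.65 (adjusted p = 0.00332), Sox9, the factor that sets Sertoli cell identity, by 0.38 (adjusted p = 0.0108) and Ctsl, a lysosomal protease, by 0.33 in one probe set (adjusted p = 0.00258, with 0.13 in its other). Both the Leydig and the Sertoli list were chosen with earlier results of these data known. They moved with the steroidogenesis genes, and their part in those results was not tested. Lists were not tested against each other.

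Among 8 genes that Sertoli cells express in response to androgen, 4 were higher and 1 was lower, with a median of 0.23. Eppin, a protease inhibitor that coats sperm, read 12.27 ± 0.03 (SD, n = 5) in null and 11.85 ± 0.14 (SD, n = 4) in WT testes (0.42, adjusted p = 0.00463), and Spon1, Tubb3 and the homeobox gene Rhox5 rose by 0.37, 0.46 and 0.30. Cldn3, a claudin of the blood-testis barrier, fell by 0.36 (adjusted p = 0.0103). Tubb3 and Rhox5 were named after their values were seen, and Rhox5 was also counted among the Sertoli cell markers.

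**Figure D5:**
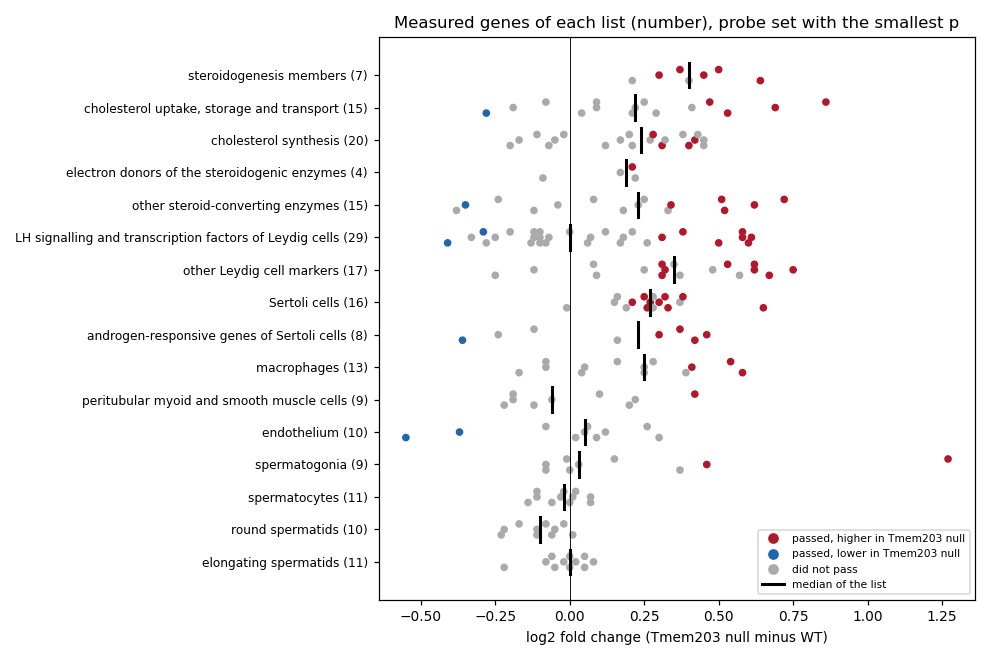
Each measured gene is plotted by list at its log2 fold change of null over WT testes (x axis), with the number measured in brackets, red and blue points for genes that passed as higher and as lower, grey points for the rest and a black bar at the list's median. The median is 0.40 for the steroidogenesis genes, 0.35 for other Leydig cell markers, 0.27 for Sertoli cells and -0.10 for round spermatids.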

How the data were processed

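Total RNA of whole testis was measured per sample. The deposited values are log2 signals that the authors made with RMA, that is by background adjustment, quantile normalization and summarisation of probe sets. The submitters' processing notes name limma. The raw scans were not used here.

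Each probe set was fitted by genotype (lmFit and eBayes of limma 3.58.1, R 4.3.3). The 64 control probe sets of the array were left out, and p was adjusted over the remaining 45037. The number of arrays limits the precision. The annotation gave 1 symbol to 34945 probe sets, several to 932 and none to 9160, and 34741 of the 34945 matched the RefSeq gene table. The steroidogenesis genes and all lists were chosen with earlier results of these data known. Text names all their probe sets, up to 3 genes of each other list with the smallest p, and the 3 genes closest to the member that passed with the largest change. The fit was tested on simulated data. Python 3.11.15 joined tables and drew figures. Alternatives covered each array left out, the replicate number as a block, array weights, centring, normalization, the variance model, the filter on low values and the choice of probe set. Scan dates were not used here, so batches were not tested.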

Additional observations from a re-analysis of the deposited data

Results flagged for a closer look

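In 9 of 150 groups of values checked, a sample lay far from the others of its genotype, which chance alone gives in about 1 of 20. Among the steroidogenesis genes this was so for Hsd17b3, at 12.05 in null replicate 1, against 11.76 to 11.82 in the other null arrays. Null replicate 1 also stood out high for Shbg, at 10.05 (others 9.78 to 9.85), for Cldn3, at 8.93 (others 8.80 to 8.84), and for Myl9, at 12.22 (others 12.02 to 12.05), and low in the mean of the spermatocyte markers, at 12.40 (others 12.45 to 12.46). Null replicate 2 stood out for Egfl7, at 7.31 (others 7.01 to 7.08). WT replicate 1 stood out for Gata4, at 6.16 (others 6.03 to 6.04), and for Cd163, at 7.59 (others 7.06 to 7.15). WT replicate 3 stood out in the mean of the other Leydig cell markers, at 11.05 (others 10.72 to 10.75).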

How the results depend on the processing

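Hsd3b1 and Cyp11a1 (1439947_at) passed an adjusted p under 0.05 under all 15 alternatives that refitted the model, with adjusted p from 0.00327 to 0.0422 and from 0.00207 to 0.0298. Of 194 recomputed log2 fold changes of the steroidogenesis probe sets, 174 kept their direction and side of the threshold, 17 kept the direction and no longer passed, and 3 changed sign, all of the undetected Cyp11a1 probe set 1457604_x_at (-0.00 without null replicate 2 or WT replicate 2 and after median centring, with up to 0.07 when other arrays were left out). Leaving out an array gave 1925 to 3603 passing probe sets, against 3367, 2 to 5 passing steroidogenesis probe sets, against 5, 2 to 5 passing genes, against 5, and 32 to 64 passing genes over all lists, against 53. The steroidogenesis genes that passed were 2 without WT replicate 2, and 3 without null replicate 1, null replicate 4 or WT replicate 4. Requiring a 1.5-fold change left 1 gene, Hsd3b1, so that Cyp11a1 at 1.42-fold was lost, and reading each gene by its brightest probe set, an alternative chosen after seeing the data, left 4 and lost Cyp11a1, whose brightest probe set 1448804_at had adjusted p = 0.383. None of the 5 passing probe sets is of the kinds marked as open to cross-hybridization. Leaving those kinds out therefore could not change the count. With the replicate number as a block 1174 probe sets, 2 steroidogenesis probe sets, 2 genes and 19 list genes passed. After the mean of each genotype was subtracted, correlations of same-numbered samples were -0.073, 0.105, -0.0355 and -0.000992. Such small values cannot decide whether the numbers pair the samples. The number of arrays and the signal over background limit the dim probe sets, and the cause of these shifts was not tested.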

Other observations

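Markers of other cells of the testis were read in the same way, where 8.03% of all genes passed as higher and 6.82% as lower. Of 13 macrophage genes 3 were higher in null testes, with a median log2 fold change of 0.25. Mrc1, the mannose receptor, rose by 0.41 (adjusted p = 0.0127), Cd163, a scavenger receptor, by 0.58 (adjusted p = 0.0346) and Cx3cr1, a chemokine receptor, by 0.54 in one probe set (adjusted p = 0.0452, with 0.23 in its other), but without WT replicate 3 Cd163 and Cx3cr1 did not pass (adjusted p = 0.0702 and 0.0526) while Mrc1 did (0.0139). Of 9 peritubular and smooth muscle genes only Smtn was higher (0.42, adjusted p = 0.0188). That is 11.1% of them, near the share of all genes, and their median was -0.06. Of 10 endothelial genes Egfl7 and Vwf were lower, with log2 fold changes of -0.55 (adjusted p = 0.00285) and -0.37 (adjusted p = 0.013), and the median of the 10 was 0.05.

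Of 9 spermatogonial genes 2 were higher. Gfra1, the receptor of undifferentiated spermatogonia for the Sertoli cell factor GDNF, read 9.33 ± 0.17 (SD, n = 5) in null and 8.06 ± 0.28 (SD, n = 4) in WT testes, a log2 fold change of 1.27 (adjusted p = 5.02e-04) in one probe set, while its others changed by -0.17 and 0.24 and did not pass. Kit, a receptor of differentiating spermatogonia, rose by 0.46 (adjusted p = 0.0122). In limma none of 11 spermatocyte, 10 round spermatid and 11 elongating spermatid genes passed, and at an unadjusted p under 0.05 there were 1, 3 and 1, all lower. Their median log2 fold changes were -0.02, -0.10 and -0.00. Izumo1 and Sun5, of round spermatids, had -0.22 (adjusted p = 0.075) and -0.23 (adjusted p = 0.0928). Read by their brightest probe sets, the elongating spermatid genes had means of 13.43 or more, among the brightest on the array. Whether such bright probe sets can show a fall was not tested. By flow cytometry the paper reports far fewer condensed haploid cells in older null mice.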
